A study of Macaca mulatta with 6 samples.

Results

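The genes described here encode the folding, quality control and export machinery of the endoplasmic reticulum (ER): chaperones, disulfide enzymes, sensors and transcription factors of the unfolded protein response (UPR), ER-associated degradation, COPII coats with the KDEL receptors, and the translocation channel. They were chosen by name, as a list of 51 symbols written with earlier results of these data known. The comparisons with all genes below are therefore not independent of these data. Of the 51, 46 were among the 17795 genes of the count table, and all 46 passed the filter on low counts that left 11539 genes for testing. DNAJB9, MANF, EDEM1, SELENOS and SEC61G were not analysed here. The libraries were bulk RNA-seq of rhesus monkey (Macaca mulatta) cultures, which the study names spermatogonial stem cells (SSCs). The cells were grown in droplets of a basement membrane extract hydrogel. In every library the summed markers of fibroblasts and stroma lay far above those of undifferentiated spermatogonia, with values given further below. SSC PDGF+ comprised 3 libraries of cultures that received human platelet-derived growth factor (PDGF), and SSC PDGF- comprised 3 libraries of PDGF-free cultures. In each group replicate 1 was in batch 1 and replicates 2 and 3 were in batch 2 by the labels. The labels name the tissue only as testis, and the donors, their ages and the days in culture of these libraries were not given in the sources used here. By the culture methods the SSC medium also held serum, GDNF, EGF, bFGF, LIF and Wnt3a, and the sources name no change between the groups other than PDGF. Total counts were 10593805 to 14102697 per library.

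Secreted and membrane proteins enter the ER through the SEC61 channel, fold there with chaperones and disulfide isomerases, and leave in COPII-coated vesicles, while proteins that fail to fold are drawn back to the cytosol and degraded. When unfolded protein accumulates, the membrane sensors IRE1 (ERN1), ATF6 and PERK (EIF2AK3) start the UPR: IRE1 splices XBP1 mRNA, ATF6 is cleaved in the Golgi to a transcription factor, and PERK slows translation and raises ATF4. ATF6 and XBP1 then raise transcription of chaperone, degradation and transport genes. CREB3L1 and CREB3L2 are relatives of ATF6 that are also cleaved in the Golgi and are known from matrix-secreting cells. Gene counts do not show XBP1 splicing, ATF6 cleavage or PERK phosphorylation, so the values below are RNA levels only.

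With PDGF, 15 of the 46 genes were higher and 1, DERL3, was lower at an adjusted p under 0.05 in edgeR's quasi-likelihood test, while over all genes tested 7.61% were called higher and 10.7% lower. The genes that rose came from all 6 roles, namely HSPA5, HYOU1 and FKBP14 among the chaperones, PDIA4 and PDIA6 among the disulfide enzymes, ATF6 and CREB3L2 among the UPR factors, SEL1L and SYVN1 in degradation, SEC23A, SEC24D, KDELR2 and KDELR3 in transport, and SEC61A1 and SSR1 at the translocation channel. The changes were modest, from a log2 fold change of 0.50 (PDIA4) to 1.11 (CREB3L2). The median log2 fold change of the 46 was 0.37, beside 0.02 over all genes tested. It was 0.37 within batch 1 (1 library a group) and 0.37 within batch 2. Of the 30 genes that were not called, 23 lay above 0 and 7 below 0 in log2 fold change, from -0.58 to 0.51. The 3 SSC PDGF+ libraries lay above all 3 SSC PDGF- libraries for 25 of the 46 genes and below them for 1, beside 18.2% and 19.3% of all genes tested.

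Batch 1 stood apart from batch 2, and same-numbered libraries deviated together, so a second fit took the replicate number as a block. Within batch 2, departures from the group mean correlated as closely between different numbers (r = 0.321 and 0.301) as between the same numbers (0.291 and 0.308). These correlations therefore do not tell a shared number from a shared batch. With this replicate block, 35 of the 46 genes were higher and 5 were lower (DERL3, FKBP10, SAR1A, SSR2 and SSR4), beside 31.1% higher and 29.0% lower of all genes tested. The 6 genes outside both directions were SDF2L1, P4HB, HERPUD1, DERL2, SEC31A and SEC61B. When GC content and transcript length were corrected for as well, 40 genes were higher and 2 lower (DERL3 and SAR1A), beside 36.1% higher and 22.6% lower of the 11237 genes of that fit. Of its calls over all genes 61.5% were higher, against 51.7% with the block alone and 41.7% without block or correction. The median log2 fold change over all genes was 0.086 with the correction and 0.017 with the block alone. This correction turned the sign of FKBP10 and SSR2, which were then called higher with log2 fold changes of 0.13 and 0.18, and it brought calls for SDF2L1 (0.63), SEC61B (0.48) and P4HB (0.22), all higher. Replicates 2 and 3 share a batch, and nothing in the labels says that they came from separate cultures. When they were summed to 1 library in each group, 0 of the 46 genes were called higher and DERL3 was still lower in edgeR's test, beside 1.72% higher and 4.06% lower of all genes tested. At an unadjusted p under 0.05 edgeR had 14 higher and 1 lower on the summed libraries. At an adjusted p under 0.05, DESeq2 called 2 higher and 1 lower there, and limma-voom 0 higher and 1 lower. The shares over all genes were not computed for these counts. With batch as a term after summing, edgeR called 35 higher and 4 lower, beside 30.6% and 28.5% of all genes tested. Single libraries also moved the count without a block: with SSC PDGF+ replicate 2 left out 9 genes were called higher, with SSC PDGF- replicate 2 or 3 left out 5 in each case, and with SSC PDGF- replicate 1 left out 19 higher and 2 lower. The calls over all genes moved too, from 878 higher and 1230 lower of 11539 genes to 435 and 733 of 11792, 444 and 762 of 11780, 441 and 735 of 11748, and 1284 and 1726 of 11757 in the same order. HSPA5, HYOU1, PDIA6, CREB3L2, SEC61A1 and DERL3 were called whichever library was left out.

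**Figure D1:**
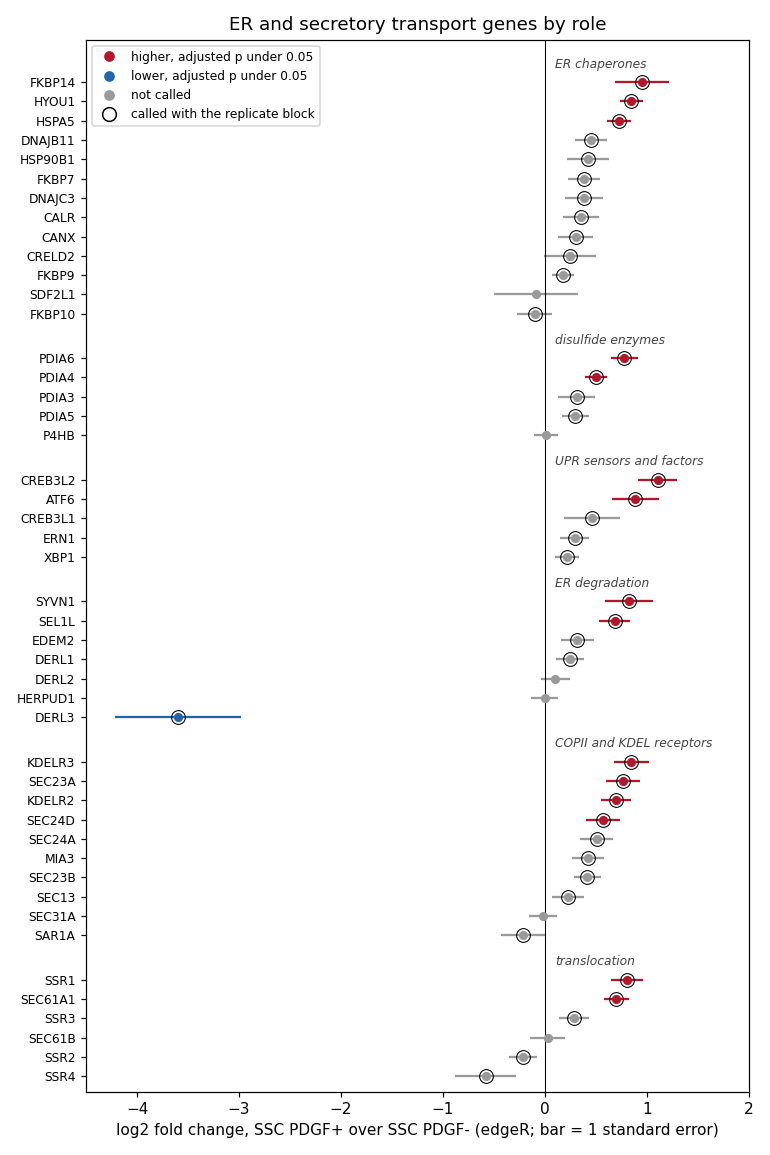
Log2 fold change of SSC PDGF+ over SSC PDGF- for the 46 genes by role, with 1 standard error, from edgeR without a block over 3 libraries a group. Red and blue points are the 15 genes called higher and the 1 called lower, grey points are the 30 not called, and open rings mark genes called with the replicate block. Most points lie right of 0, and DERL3 lies alone at -3.60.

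The promoters of 5 of these genes are printed because each holds an exact match to an ER stress element, the sequence to which ATF6 and XBP1 are known to bind. The sequences are the 250 bases before the RefSeq gene start in Mmul_10, 5′ to 3′ on the gene's strand, with the matches in capitals. The searches covered both strands for the ER stress element (CCAAT, 9 bases, CCACG), ER stress element II (ATTGG, 1 base, CCACG) and the core TGACGTGG.
HSPA5 (chr15:15428092-15428341, plus strand): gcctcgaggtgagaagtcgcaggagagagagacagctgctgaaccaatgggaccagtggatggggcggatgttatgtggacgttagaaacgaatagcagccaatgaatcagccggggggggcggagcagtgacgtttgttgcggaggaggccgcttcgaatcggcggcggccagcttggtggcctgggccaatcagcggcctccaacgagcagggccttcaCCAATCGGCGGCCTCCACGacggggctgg
HSP90B1 (chr11:103631804-103632053, plus strand): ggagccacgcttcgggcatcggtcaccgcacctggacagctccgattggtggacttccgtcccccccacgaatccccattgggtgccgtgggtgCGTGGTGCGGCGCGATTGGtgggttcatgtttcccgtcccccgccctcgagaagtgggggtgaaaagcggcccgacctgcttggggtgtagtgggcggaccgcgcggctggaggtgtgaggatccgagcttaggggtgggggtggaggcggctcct
CRELD2 (chr10:1552760-1553009, minus strand): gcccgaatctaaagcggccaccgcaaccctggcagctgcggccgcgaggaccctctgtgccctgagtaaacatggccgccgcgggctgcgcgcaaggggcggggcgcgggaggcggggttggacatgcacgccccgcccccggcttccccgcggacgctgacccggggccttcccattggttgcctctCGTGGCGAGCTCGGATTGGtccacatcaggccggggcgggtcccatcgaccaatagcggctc
PDIA6 (chr13:97948398-97948647, plus strand): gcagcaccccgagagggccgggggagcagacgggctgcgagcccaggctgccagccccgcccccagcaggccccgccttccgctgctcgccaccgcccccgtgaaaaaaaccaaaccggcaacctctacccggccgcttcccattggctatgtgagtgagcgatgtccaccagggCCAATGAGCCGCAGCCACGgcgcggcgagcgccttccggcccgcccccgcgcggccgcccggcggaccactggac
HYOU1 (chr14:112123933-112124182, minus strand): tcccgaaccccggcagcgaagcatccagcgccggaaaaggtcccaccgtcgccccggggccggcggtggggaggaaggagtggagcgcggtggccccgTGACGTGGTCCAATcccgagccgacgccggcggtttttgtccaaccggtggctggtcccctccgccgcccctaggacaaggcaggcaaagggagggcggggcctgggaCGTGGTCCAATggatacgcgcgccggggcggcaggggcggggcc

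Counted from the gene start, with -1 the last base before it, the ER stress element lay at -29 to -11 in HSPA5 and at -75 to -57 in PDIA6, in the direction of the gene. It lay on the opposite strand at -156 to -138 in HSP90B1 and at -62 to -44 in CRELD2. HYOU1 held no match to it but 2 matches to ER stress element II, at -149 to -139 and at -44 to -34, the first of which overlapped a TGACGTGG at -152 to -145. The ER stress element was present in 4 of the 46 promoters (8.7%) and in 10 of the 11143 promoters of tested genes (0.0897%), or 13 of all 21088 promoters (0.0616%). TGACGTGG was present in 4 (8.7%), namely HYOU1, FKBP14, SEC23A and SEC24A, and in 0.7% of the promoters of tested genes. The shorter ACGTGG, which TGACGTGG contains, was present in 14 of the 46 (30.4%) and in 9.94% of tested genes. The element was defined on promoters of ER chaperone genes, so its presence here is not independent of how the genes were chosen. Of the 15 genes called higher, 2 held the ER stress element (HSPA5 and PDIA6) and 1 held ER stress element II (HYOU1). HSP90B1 and CRELD2, with the same element, were called with the replicate block but not in the fit of all 6 libraries without it, and 8 of the 15 called genes (for example SEC61A1, CREB3L2 and KDELR3) held no match to any of the searched sequences in this window.

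Among the 13 chaperone genes, 3 rose with PDGF and none was called lower, beside 7.61% and 10.7% of all genes tested. Their median log2 fold change was 0.38. HSPA5 encodes BiP, the main chaperone of the ER lumen, which also holds the UPR sensors inactive. HSPA5 was at 1928, 1773 and 1749 CPM (counts scaled to library size with TMM factors, replicates 1, 2 and 3 in this order here and below) in SSC PDGF+ and at 1203, 1035 and 1043 CPM in SSC PDGF-. All SSC PDGF+ libraries lay above all SSC PDGF- libraries, and the log2 fold change was 0.73 ± 0.12 (SE, edgeR, adjusted p = 0.00449). HYOU1, the nucleotide exchange factor that lets BiP release its clients, was at 322, 336 and 345 CPM with and 183, 183 and 192 CPM without PDGF. The libraries of a group lay close together and the groups far apart, with a log2 fold change of 0.85 ± 0.12 (adjusted p = 0.00226). FKBP14, a prolyl isomerase of the ER known to act on collagens, was at 36.7, 24.6 and 20.8 CPM against 17.99, 11.7 and 12.7 CPM. Replicate 1 was the highest library of each FKBP14 group and the groups did not overlap (log2 fold change 0.95 ± 0.27, adjusted p = 0.0424). The calls of HSPA5 and HYOU1 held when any 1 library was left out, while the adjusted p of FKBP14 became 0.0796 and 0.0788 on leaving out SSC PDGF+ replicates 1 and 2, and 0.146 and 0.141 on leaving out SSC PDGF- replicates 2 and 3. FKBP14 also missed the threshold with upper quartile factors (0.0648), without factors (0.0583) or with at least 10 counts a library (0.0568).

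HSP90B1 encodes GRP94, the ER member of the HSP90 family. It was at 1982, 1413 and 1317 CPM in SSC PDGF+ and 1471, 1008 and 1026 CPM in SSC PDGF-. SSC PDGF- replicate 1 lay above SSC PDGF+ replicates 2 and 3, so the groups overlapped across batches, while within batch 1 and within batch 2 the SSC PDGF+ libraries were higher. The log2 fold change was 0.43 (95% interval -0.05 to 0.90, adjusted p = 0.194, and 1.42e-09 with the replicate block), and the adjusted p was 0.0417 without SSC PDGF- replicate 1. The lectin chaperones CALR and CANX, which bind glycosylated clients, overlapped across batches in the same way. CALR was at 3388, 2654 and 2482 CPM against 2751, 1992 and 1926 CPM (log2 fold change 0.35, adjusted p = 0.212, 4.74e-09 with the block), and CANX had a log2 fold change of 0.30 (adjusted p = 0.249, 2.63e-07 with the block). The BiP co-chaperones DNAJB11 and DNAJC3 had log2 fold changes of 0.45 and 0.38 and were called with the block but not in the fit of all 6 libraries without it. On leaving out SSC PDGF- replicate 1 the adjusted p of DNAJB11 was 0.0404 and that of CALR 0.0384. A call with the block and none without it was also found for the prolyl isomerases FKBP7 (0.39) and FKBP9 (0.18) and for CRELD2 (0.25), an ER protein induced in the UPR. At the other end of the list, FKBP10, a collagen prolyl isomerase, had a log2 fold change of -0.10 (adjusted p = 0.713, 0.0353 with the block), which the GC and length correction turned to 0.13. Its call with the block was not found with replicates 2 and 3 summed and batch as a term (0.0585) or in batch 2 alone (0.122). SDF2L1, a BiP cofactor, was at 54.2, 134 and 125 CPM against 56.4, 134 and 142 CPM, a gap between batches far wider than that between groups (log2 fold change -0.08, adjusted p = 0.908, and 0.63 with the GC and length correction). With the replicate block, 11 chaperone genes were higher and 1 was lower, beside 31.1% and 29.0% of all genes tested.

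Of the 5 disulfide enzymes, PDIA6 and PDIA4 rose with PDGF and none was called lower, beside 7.61% and 10.7% of all genes tested. Their median log2 fold change was 0.31. PDIA6, a protein disulfide isomerase that binds BiP, was at 716, 655 and 666 CPM in SSC PDGF+ and 446, 379 and 360.4 CPM in SSC PDGF-. The groups did not overlap and the log2 fold change was 0.78 ± 0.13 (adjusted p = 0.00511). PDIA4, an isomerase found in the same chaperone complexes, was at 803, 823 and 794 CPM against 544, 574 and 589 CPM. Its 3 libraries of a group lay within a narrow range in both batches (log2 fold change 0.50 ± 0.11, adjusted p = 0.0155). P4HB, the classical protein disulfide isomerase and a subunit of collagen prolyl hydroxylase, was at 2729.8, 3297 and 3201 CPM with and 2815, 3167 and 3187 CPM without PDGF. The P4HB groups overlapped and its log2 fold change was 0.01 (95% interval -0.27 to 0.28, adjusted p = 0.964, 0.871 with the block), with a sign that changed with the scaling. PDIA3, which works with CALR and CANX, and PDIA5 had log2 fold changes of 0.31 and 0.30, and both were called with the block but not without it. The call of PDIA6 held without any 1 library, while the adjusted p of PDIA4 became 0.0729 and 0.0600 on leaving out SSC PDGF+ replicates 2 and 3, and 0.0694 and 0.0569 on leaving out SSC PDGF- replicates 2 and 3.

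Levels per length, in CPM per kilobase of the longest RefSeq transcript, set the common chaperones far above the sensors. The mean level of CALR was 1519 with and 1188 without PDGF, that of P4HB 1181 and 1174, that of PDIA3 838 and 675, and that of HSPA5 703 and 423 CPM per kilobase. HSPA5 and HSP90B1 were at about the same level without PDGF, 423 and 427, and at 703 and 574 with it. At the low end were ERN1 (5.93 and 4.84), SEL1L (5.78 and 3.59), ATF6 (2.73 and 1.47) and CREB3L2 (1.86 and 0.866 CPM per kilobase). ATF6 had the same counts as DUSP12, so its level is not certain to be its own. By the length of DUSP12 these reads were at 9.93 with and 5.36 without PDGF. DERL3 was the lowest with PDGF at 0.219, and was at 2.81 without it.

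All 5 UPR sensors and factors had a positive log2 fold change, with a median of 0.46. Of these, 2 were called higher, beside 7.61% of all genes tested. CREB3L2 was at 15.7, 17.2 and 15.9 CPM in SSC PDGF+ and 6.16, 8.43 and 8.13 CPM in SSC PDGF-. Its groups lay far apart in both batches, with a log2 fold change of 1.11 ± 0.20 (adjusted p = 0.00681), and the call held without any 1 library. ATF6, the sensor that becomes a transcription factor, was at 24.6, 20.1 and 15.03 CPM against 12.1, 11.1 and 9.01 CPM. The 3 SSC PDGF+ libraries lay above the 3 SSC PDGF- libraries and the log2 fold change was 0.89 ± 0.23 (adjusted p = 0.0325). DUSP12 had the same count as ATF6 in all 6 libraries, so these reads cannot be assigned to ATF6 alone. The adjusted p of ATF6 was 0.0668 and 0.0909 on leaving out SSC PDGF+ replicates 1 and 2, and 0.0938 and 0.117 on leaving out SSC PDGF- replicates 2 and 3, and 0.0503 with upper quartile factors. CREB3L1 was at 159.5, 263 and 253 CPM against 106, 200.3 and 185 CPM. Here replicate 1 was the lowest library in each group and the groups overlapped (log2 fold change 0.46, 95% interval -0.17 to 1.09, adjusted p = 0.284, 8.55e-08 with the block). ERN1, the IRE1 sensor and nuclease, was at 53.1, 47.6 and 49.96 CPM and 43.3, 41.6 and 38.02 CPM. XBP1, whose mRNA IRE1 splices, was at 204, 198 and 205 CPM and 178, 179.5 and 165 CPM. Neither pair of groups overlapped, but the differences were small, with log2 fold changes of 0.29 (95% interval -0.03 to 0.62) and 0.22 (-0.06 to 0.49). Their adjusted p were 0.186 and 0.241 without and 0.00422 and 0.00107 with the replicate block.

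**Figure D2:**
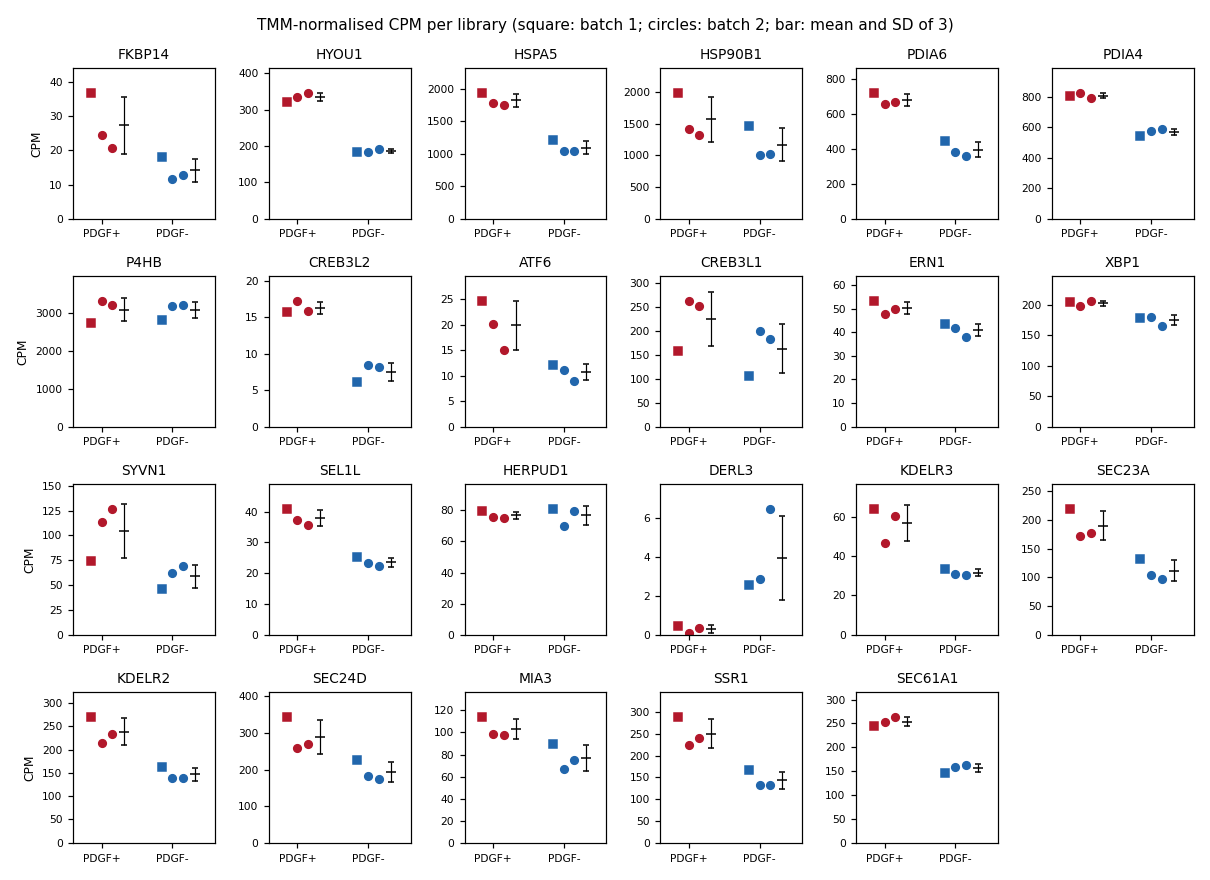
TMM-normalised CPM in each library (linear axes from 0) for 23 of the 46 genes, the 16 called and 7 shown whatever their result, with SSC PDGF+ in red and SSC PDGF- in blue. Squares are batch 1 (replicate 1), circles are batch 2 (replicates 2 and 3), and the bar beside them is the mean with the SD of 3 libraries. HYOU1 and SEC61A1 show tight groups that lie apart, HSP90B1 and CREB3L1 show a batch 1 library away from the others in each group, and P4HB and HERPUD1 show overlapping groups.

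Of the 7 genes of ER-associated degradation, SYVN1 and SEL1L rose and DERL3 fell, beside 7.61% higher and 10.7% lower of all genes tested. The median log2 fold change was 0.25. With the replicate block 4 were higher and 1 lower, beside 31.1% and 29.0% of all genes tested. SYVN1 encodes HRD1, the ubiquitin ligase of the ER membrane, and was at 74.3, 113 and 126 CPM in SSC PDGF+ and 46.2, 62.1 and 68.9 CPM in SSC PDGF-. Replicate 1 was the lowest of each group, and the lowest SSC PDGF+ library lay just above the highest SSC PDGF- library (log2 fold change 0.82 ± 0.24, adjusted p = 0.0453). SEL1L, the adaptor of HRD1, was at 40.8, 37.3 and 35.6 CPM against 25.1, 23.2 and 22.3 CPM. The SEL1L groups lay apart in both batches (log2 fold change 0.69 ± 0.15, adjusted p = 0.0160). HERPUD1, a UPR target that organises the HRD1 complex, was at 79.5, 75.4 and 75.3 CPM and 80.7, 69.8 and 79.8 CPM. These groups overlapped, and the log2 fold change was -0.00084 (95% interval -0.31 to 0.30, adjusted p = 0.997, 0.995 with the block), with a sign that changed between settings. EDEM2, a mannosidase that marks proteins for degradation, and DERL1, a derlin of the same membrane complex, had log2 fold changes of 0.32 and 0.25 and were called with the block but not without it. DERL2 had a log2 fold change of 0.10 and was called in neither fit. The adjusted p of SYVN1 was 0.122 and 0.138 on leaving out SSC PDGF+ replicates 2 and 3, and 0.0623, 0.118 and 0.0773 on leaving out SSC PDGF- replicates 1, 2 and 3, 0.0548 in limma-voom and 0.0631 with at least 10 counts a library. That of SEL1L was 0.0641 and 0.0525 on leaving out SSC PDGF+ replicates 2 and 3, and 0.0685 and 0.0730 on leaving out SSC PDGF- replicates 2 and 3.

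DERL3, the third derlin, went the other way from SYVN1 and SEL1L. Its counts in the SSC PDGF+ libraries were 7, 1 and 5, against 31, 30 and 66 in the SSC PDGF- libraries, or 0.473, 0.0782 and 0.376 CPM against 2.55, 2.87 and 6.47 CPM. All SSC PDGF- libraries were higher, and the log2 fold change was -3.60 ± 0.62 (adjusted p = 0.00604). Within batch 1 the log2 difference was -2.35 and within batch 2 -4.31. The call held without any 1 library, and DERL3 dropped out of the test where every library had to reach 10 counts. It had passed the low-count filter through the SSC PDGF- libraries, where it was higher. DERL3 is known from secretory tissues and plasma cells. The summed level of the 4 plasma and B cell markers in the table was 8.72 to 13.6 CPM with and 26.3 to 42.2 CPM without PDGF, with PRDM1 the most abundant and the only one tested, and it was called lower. The part of these markers in the DERL3 result was not tested. Here and below, fewer cells of a type and less RNA per cell cannot be told apart in bulk libraries.

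The 10 COPII and KDEL receptor genes had a median log2 fold change of 0.47. Of these, 4 were called higher and none lower, beside 7.61% and 10.7% of all genes tested. With the replicate block 8 were higher and 1 lower, beside 31.1% and 29.0%. SEC23A, a component of the inner COPII coat, was at 218, 173 and 177 CPM in SSC PDGF+ and 132, 104 and 97.7 CPM in SSC PDGF-. SEC24D, its partner that selects cargo, was at 343, 258 and 269.7 CPM against 226, 183 and 175 CPM. In both genes replicate 1 was the highest library of each group and the groups did not overlap, with log2 fold changes of 0.76 ± 0.17 (adjusted p = 0.0167) and 0.57 ± 0.17 (adjusted p = 0.0469). KDELR2 and KDELR3 encode receptors that return escaped ER chaperones from the Golgi. KDELR2 was at 269, 213 and 233 CPM with and 162, 139.8 and 138 CPM without PDGF (log2 fold change 0.70 ± 0.14, adjusted p = 0.0129). KDELR3 was at 63.8, 46.4 and 60.6 CPM with and 33.7, 30.7 and 30.4 CPM without PDGF (log2 fold change 0.85 ± 0.17, adjusted p = 0.0114). For both receptors every SSC PDGF+ library lay above every SSC PDGF- library. The paralogues SEC23B and SEC24A also had groups that did not overlap, with log2 fold changes of 0.42 and 0.51, and were called with the block but not in the fit without it (adjusted p = 0.0633 and 0.0623). DESeq2 without a block called both (0.0423 and 0.0372), and edgeR called SEC24A on leaving out SSC PDGF- replicate 1 (0.0384).

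MIA3 encodes TANGO1, which loads bulky cargo such as procollagen at ER exit sites. It was at 114, 98.4 and 98.04 CPM in SSC PDGF+ and 89.4, 66.6 and 74.8 CPM in SSC PDGF-. The groups did not overlap, and the log2 fold change was 0.43 (95% interval 0.07 to 0.79, adjusted p = 0.0981, 5.35e-06 with the block, and 0.0384 without SSC PDGF- replicate 1). Of the outer coat, SEC13 had a log2 fold change of 0.23 (adjusted p = 0.351, 0.00158 with the block) and SEC31A one of -0.02 (adjusted p = 0.932, 0.765 with the block). SAR1A, the GTPase that starts coat assembly, was at 237, 165 and 150.2 CPM against 261, 192 and 187 CPM. It was the 1 gene of the group that was lower with the replicate block (log2 fold change -0.21, adjusted p = 0.523, 0.000750 with the block). The adjusted p of SEC23A was 0.0765 and 0.0762 on leaving out SSC PDGF- replicates 2 and 3, that of KDELR2 was 0.0643 and 0.0633 on leaving out SSC PDGF- replicates 2 and 3, and that of KDELR3 was 0.0516 on leaving out SSC PDGF+ replicate 3, and 0.0532 and 0.0532 on leaving out SSC PDGF- replicates 2 and 3. SEC24D was called only without SSC PDGF- replicate 1, and its adjusted p was 0.0872, 0.0739 and 0.0897 on leaving out SSC PDGF+ replicates 1, 2 and 3, and 0.160 and 0.164 on leaving out SSC PDGF- replicates 2 and 3. It was 0.0879 with upper quartile factors, 0.0715 without factors and 0.0644 with at least 10 counts a library.

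Of the 6 translocation genes, 2 rose and none was called lower, beside 7.61% and 10.7% of all genes tested. With the replicate block 3 were higher and 2 lower, beside 31.1% and 29.0% of all genes tested. The median log2 fold change was 0.16. SEC61A1, the channel through which new chains enter the ER, was at 245, 253 and 263 CPM in SSC PDGF+ and 147, 158 and 163 CPM in SSC PDGF-. The groups lay far apart with little spread, and the log2 fold change was 0.70 ± 0.12 (adjusted p = 0.00601). SEC61B, a small subunit of the same channel, was at 159, 201 and 181 CPM against 139.9, 199 and 193 CPM, and these overlapping groups gave a log2 fold change of 0.03 (95% interval -0.37 to 0.43, adjusted p = 0.930). SSR1 to SSR4 encode the subunits of the translocon-associated protein complex beside the channel. SSR1 was at 288, 223 and 239.8 CPM with and 166, 132 and 132 CPM without PDGF, without overlap (log2 fold change 0.81 ± 0.16, adjusted p = 0.0114). SSR3 had a log2 fold change of 0.29 (adjusted p = 0.209, 0.000286 with the block) and SSR2 one of -0.22 (adjusted p = 0.310, 7.96e-05 with the block). SSR4 was at 113, 206 and 199 CPM against 164, 299 and 309 CPM. In each batch the SSR4 libraries with PDGF were the lower ones, while SSC PDGF- replicate 1 lay below SSC PDGF+ replicates 2 and 3 (log2 fold change -0.58, adjusted p = 0.219, 1.48e-09 with the block). SSR4 was called lower without SSC PDGF- replicate 1 (adjusted p = 0.0337). With GC content and length corrected in the block, SSR2 turned to a log2 fold change of 0.18 (adjusted p = 0.000318) and SSR4 to one of 0.03 (0.553), so the direction of both depends on that correction. The call of SEC61A1 held without any 1 library, and the adjusted p of SSR1 was 0.0574 and 0.0563 on leaving out SSC PDGF- replicates 2 and 3.

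Within the batches the direction of most genes was the same. Each of the 15 genes called higher was higher in batch 1, by a log2 difference of 0.56 (PDIA4) to 1.35 (CREB3L2), and in batch 2, by 0.47 (PDIA4) to 0.99 (CREB3L2). These genes were called on the same libraries, so this is not independent of the call. Over the 46 genes, 36 were higher and 5 were lower in SSC PDGF+ in all 3 same-numbered pairs. Of all 11539 genes tested, 4403 were higher and 4154 lower in all 3 pairs. The batches themselves differed in level: 45 of the 46 genes had the same sign of the difference between batch 1 and batch 2 in both groups, 27 being higher and 18 lower in batch 1. This difference exceeded 0.5 on the log2 scale in both groups for 7 genes, of which FKBP14 and HSP90B1 were higher and SDF2L1, CRELD2, CREB3L1, SYVN1 and SSR4 lower in batch 1. Across the 46 genes it went with base composition, with a Spearman rho of -0.794 between GC percent and the batch difference in SSC PDGF- and of -0.717 in SSC PDGF+. The log2 fold change of PDGF also went with GC percent (rho -0.381) and with transcript length (rho 0.388). These are descriptions across genes that share the same libraries. SSR4 (60.3% GC, 895 bases) and SDF2L1 (65.2% GC, 666 bases), with log2 fold changes below 0, are short and GC-rich, and SSR1 (38.3% GC, 3419 bases) and SEC23A (38.9% GC, 3792 bases), which rose, are longer and AT-rich. SYVN1 (59.1% GC) and HYOU1 (55.1% GC) rose as well. The part of base composition and length in the differences between groups was not tested beyond the corrected fit.

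**Figure D3:**
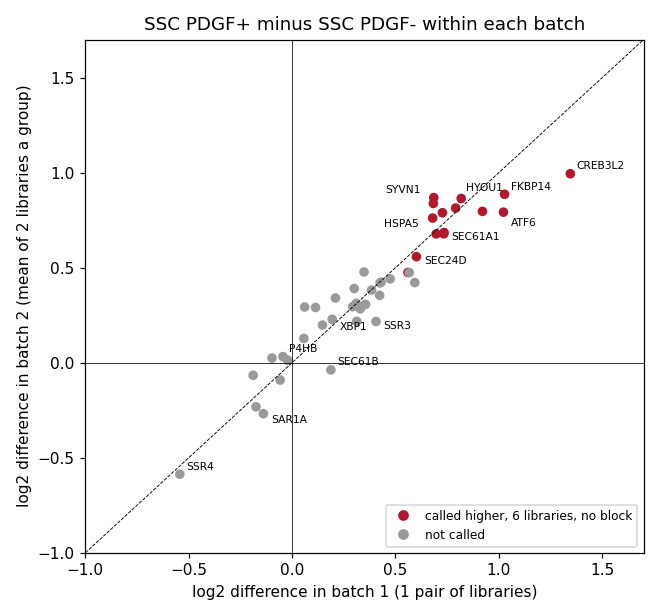
Log2 difference of SSC PDGF+ minus SSC PDGF- in batch 1 (x axis, 1 library a group) and in batch 2 (y axis, means of 2 libraries a group) for 45 of the 46 genes, with the line of equality dashed. DERL3, at -2.35 and -4.31, lies outside the axes. Red points, called higher in the fit without a block, lie in the upper right with CREB3L2 farthest out, and SSR4 lies at the lower left.

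A wider list, also written with earlier results of these data known, held 145 other ER and secretory genes. Of these, 131 were in the table and 125 were tested, of which 14 rose and 5 fell, beside 7.61% and 10.7% of all genes tested. Their median log2 fold change was 0.16. With the replicate block 67 were higher and 28 lower, beside 31.1% and 29.0% of all genes tested. Without the block, 33 were higher and 8 lower on leaving out SSC PDGF- replicate 1, beside 1284 and 1726 of all 11757 genes tested. Leaving out SSC PDGF+ replicate 3 gave 9 and 2, SSC PDGF- replicate 2 gave 7 and 1, SSC PDGF- replicate 3 gave 8 and 3, and SSC PDGF+ replicate 2 gave 11 and 1. Over all genes, these 4 fits called 447 and 726, 444 and 762, 441 and 735, and 435 and 733.

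Among these genes, TRIB3, a pseudokinase known to be induced downstream of ATF4, was at 27.7, 45.98 and 49.5 CPM in SSC PDGF+ and 11.3, 10.2 and 14.01 CPM in SSC PDGF- (log2 fold change 1.79 ± 0.26, adjusted p = 0.00289). It was the only gene of 10 tested in the list of other UPR factors that was called. EIF2AK3, the PERK sensor, had a log2 fold change of 0.41 (adjusted p = 0.216, 0.000212 with the block), and PPP1R15A, which reverses PERK signalling, one of -0.29 (adjusted p = 0.127, 5.43e-05 with the block). DDIT3, the CHOP factor of prolonged ER stress, was at 0.135, 0.235 and 0 CPM against 0.657, 0.383 and 0.882 CPM and did not pass the filter. EIF2AK3, PPP1R15A and DDIT3 are named here after their values were seen. ERO1A, the oxidase that recharges disulfide isomerases, was at 63.4, 45.4 and 48.5 CPM with and 23.00, 17.1 and 21.8 CPM without PDGF. Its groups lay far apart, with a log2 fold change of 1.34 ± 0.20 (adjusted p = 0.00323).

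In glycoprotein quality control, UGGT1, which tags misfolded glycoproteins for another round of folding, was at 94.6, 99.9 and 99.9 CPM with and 59.1, 51.3 and 47.03 CPM without PDGF. CALU, a calcium-binding protein of the secretory pathway, was at 449, 304 and 299 CPM against 219, 149 and 160.0 CPM. Both rose, with log2 fold changes of 0.90 (adjusted p = 0.00432) and 0.99 (adjusted p = 0.0161). CLGN and CALR3, the calnexin and calreticulin relatives known from male germ cells, fell with log2 fold changes of -3.09 (adjusted p = 0.00388) and -2.10 (adjusted p = 0.0140). CLGN was at 0.270, 0.626 and 0.225 CPM against 3.45, 3.83 and 2.35 CPM. CALR3 was at 0.405, 0.391 and 0.902 CPM against 2.05, 2.87 and 2.45 CPM. These levels were low beside those of CANX and CALR. CLGN and CALR3 passed the low-count filter through the SSC PDGF- libraries, where they were higher. Both dropped out of the test where every library had to reach 10 counts. The spermatid markers, summed, were also lower with PDGF (58.3 to 89.6 CPM against 499 to 797 CPM), whose part in these results was not tested. In degradation, the mannosidase EDEM3 and the HRD1 cofactor FAM8A1 rose, with log2 fold changes of 1.15 (adjusted p = 0.00740) and 0.82 (adjusted p = 0.0178). The lectin OS9, which delivers glycoproteins to HRD1, fell with a log2 fold change of -0.42 (adjusted p = 0.0401), and missed the threshold without normalization factors (0.0528) and without a filter (0.0686). Its call was lost whichever library was left out, with an adjusted p of 0.0795, 0.100 and 0.157 on leaving out SSC PDGF+ replicates 1, 2 and 3, and 0.0503, 0.111 and 0.131 on leaving out SSC PDGF- replicates 1, 2 and 3. Among the other genes of this paragraph, the adjusted p of CALU was 0.0721 and 0.0726 on leaving out SSC PDGF- replicates 2 and 3. For CALR3 it was 0.0661 on leaving out SSC PDGF+ replicate 2, and 0.0535 on leaving out SSC PDGF- replicate 2, and for FAM8A1 it was 0.0803 and 0.0610 on leaving out SSC PDGF+ replicates 2 and 3, and 0.0759 and 0.0743 on leaving out SSC PDGF- replicates 2 and 3.

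Further genes of transport and translocation were called in both directions. LMAN1, a cargo receptor between ER and Golgi, SEC16B, a scaffold of ER exit sites, and SEC24C, another cargo-binding coat subunit, rose with log2 fold changes of 0.84, 0.76 and 0.71 (adjusted p = 0.0121, 0.0129 and 0.00744). TRAM2, a translocation factor known for its part in collagen synthesis, was at 40.5, 48.6 and 43.4 CPM in SSC PDGF+ and 12.8, 16.6 and 14.8 CPM in SSC PDGF-. Its groups did not overlap, with a log2 fold change of 1.59 ± 0.17 (adjusted p = 0.000801). SRPRB, a subunit of the receptor that docks ribosomes at the ER, and MAGT1, a subunit of the glycan transferase, rose as well, with log2 fold changes of 0.96 and 0.77 (adjusted p = 0.00363 and 0.0262). SRP14 and SRP19, parts of the particle that brings ribosomes to that receptor, fell with log2 fold changes of -0.50 and -1.85 (adjusted p = 0.0297 and 0.0174), the latter at 0.743, 0.860 and 0.751 CPM against 2.22, 4.21 and 2.16 CPM. SRP14 missed the threshold without normalization factors (adjusted p = 0.0531) and with single libraries left out (0.110 and 0.133 on leaving out SSC PDGF+ replicates 2 and 3, and 0.0860 and 0.0894 on leaving out SSC PDGF- replicates 2 and 3). The adjusted p of SRP19 became 0.0613 and 0.0685 on leaving out SSC PDGF+ replicates 2 and 3, and 0.0607 on leaving out SSC PDGF- replicate 2, and that of MAGT1 0.0515 and 0.0728 on leaving out SSC PDGF+ replicates 1 and 3, and 0.105 and 0.0987 on leaving out SSC PDGF- replicates 2 and 3. LMAN1 had 0.0596 and 0.0579 on leaving out SSC PDGF- replicates 2 and 3, and SEC16B had 0.0658 on leaving out SSC PDGF+ replicate 3, and 0.0504 on leaving out SSC PDGF- replicate 2.

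**Figure D4:**
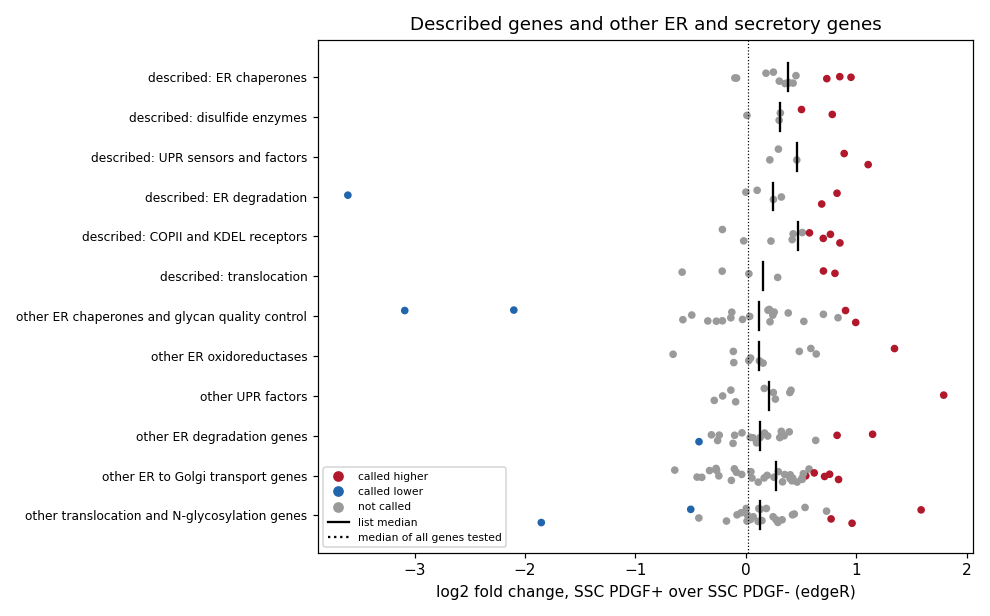
Log2 fold change of SSC PDGF+ over SSC PDGF- (edgeR, no block) for each tested gene of the 6 roles described here (46 genes) and of the 6 lists of other ER and secretory genes (125 genes), 1 point a gene, with the list median as a bar and the median of all genes tested (0.02) dotted. Points were spread vertically within a list for display only. The medians of the described roles lie between 0.16 and 0.47, and those of the other lists between 0.12 and 0.27.

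Marker genes of several cell types, spermatogonia among them, also differed between the groups, and their part in the results above was not tested. Spermatid markers summed to 58.3 to 89.6 CPM with and 499 to 797 CPM without PDGF, and all 5 that were tested fell. Of 16 markers of undifferentiated spermatogonia, 13 were in the table and 6 were tested, of which 3 fell. Their summed level was 227 to 234 CPM with and 262 to 336 CPM without PDGF, most of it ID4, while NANOS2 was at 0 in all 6 libraries and GFRA1 was at 0.203, 0 and 0.150 CPM against 0.739, 0.192 and 0.686 CPM. The 8 markers of fibroblasts and stroma, which secrete collagen, summed to 14120 to 19440 CPM with and 16980 to 19170 CPM without PDGF, led by COL1A2, and 2 of them fell. These levels were far above those of the spermatogonial markers in every library. Peritubular myoid markers summed to 961 to 1164 against 1279 to 1646 CPM, with 2 of 6 lower. Epithelial markers summed to 35.6 to 51.9 against 87.3 to 122 CPM, with 3 of 4 tested lower. Leydig markers summed to 263 to 329 against 217 to 261 CPM, with CYP11A1 at 0, and no marker was called. For Sertoli cells the sums were 110 to 142 against 93.1 to 144 CPM, for endothelial cells 7.59 to 9.15 against 4.35 to 7.74 CPM, and for myeloid cells 16.9 to 18.8 against 11.5 to 18.0 CPM, with no marker called. The T cell markers CD3E and CD8A were at 0 in all 6 libraries.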

How the data were processed

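The 6 bulk RNA-seq libraries were grouped by the sample labels. The authors deposited expected counts per gene and no normalized values. Rounding had been planned for counts that were not whole, and 13 genes held 34 fractional values, so the table was rounded. The submitters' processing notes name fastp, HISAT2 2.1.0, SAMtools and featureCounts 2.0.1 and the builds Mmul_10 and Mmul_8.0.1, with no role or order. All count columns were matched to samples by their names. Gene length, GC content and promoters came from NCBI RefSeq annotation release 103 of Mmul_10, in which 17013 of the 17795 names were found, so coordinates are those of Mmul_10 and not necessarily of the counting. Strand use in counting was not given in the sources used here, and proteins were not analysed here.

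The comparison used edgeR 4.0.16 (R 4.3.3) with TMM factors, filterByExpr, the quasi-likelihood test without a block over the whole table, and a Benjamini-Hochberg adjusted p under 0.05. The standard error is the absolute log2 fold change over the square root of F, and intervals are 95% intervals from it. Log2 differences within a batch used CPM after adding 0.5 counts. Levels per length divide CPM by the longest transcript. Promoters were searched for exact matches on both strands.

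The genes, their roles and all lists were written with earlier results of these data known. Of the 46 genes, library values are given for those called and, whatever their result, for HSPA5, HSP90B1, ERN1, ATF6, XBP1, CREB3L1, CREB3L2, HERPUD1, P4HB, MIA3, KDELR2, KDELR3 and SEC61A1. From each list of other genes, up to 3 called genes in each direction with the largest fold are named, some with library values. Library values of CALR, SDF2L1, SAR1A, SEC61B and SSR4 were added after their values were seen.

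By the labels, libraries with the same number share a batch, and their departures from the mean of their group correlated over genes (r = 0.667 for number 1, 0.291 for 2, 0.308 for 3). The replicate block was fitted as an alternative. These correlations do not show that the numbers pair the libraries, as the cross pairs within batch 2 were as close (r = 0.321 and 0.301). The labels do not say that replicates are separate cultures, so p-values measure the spread between these libraries, which may be technical. Alternatives were other scalings and filters, DESeq2 1.42.0, limma-voom (limma 3.58.1), a replicate block with and without GC and length correction, a batch term, batch 2 by itself, other thresholds and each library left out. The edgeR fit without a block was tested on counts simulated with independent libraries and no batch difference. The other fits were not tested in this way. Figures were drawn with matplotlib 3.10.9 under Python 3.11.15.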

Additional observations from a re-analysis of the deposited data

How the results depend on the processing

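Without a block, 15 of the described genes were called higher and 1 lower, and 14 and 5 of the other ER and secretory genes. With the replicate block these counts were 35 and 5, and 67 and 28. With batch as a term they were 35 and 5, and 69 and 29, beside 3604 and 3387 of all 11539 genes tested. In batch 2 alone they were 35 and 4, and 61 and 23, beside 3041 and 3085 of 11605 genes. With the replicate block and a GC and length correction they were 40 and 2, and 85 and 12, beside 4052 and 2535 of 11237 genes. With replicates 2 and 3 summed, they were 0 and 1, and 3 and 1, and with batch as a term after summing, a setting chosen after seeing the data, 35 and 4, and 69 and 28. The DESeq2 and limma-voom runs on summed libraries were also chosen after seeing the data. At an adjusted p under 0.01, 5 described genes were higher, and 7 and 1 of the other genes. With at least 10 counts in every library 0 described genes and 3 other genes were lower, and without normalization factors 3 other genes were lower. Over all genes, 865 of 10512 and 1200 of 11539 were lower in these fits. With an absolute log2 fold change of at least 0.5 required, 3 other genes were lower. Shares over all genes were not computed for the adjusted p under 0.01 or for this minimum fold change. Leaving out 1 library gave 5 to 19 and 1 to 2 described genes, and 7 to 33 and 1 to 8 other genes. The share of higher calls over all genes was 41.7%, against 51.7% with the block, 61.5% with the block and the GC and length correction and 29.7% after summing. The cause of these shifts was not tested. Summing also left fewer libraries, and the stricter filter fewer genes. P4HB changed sign with upper quartile factors (-0.056) and the stricter filter (-0.025), and between -0.058 and 0.098 with a library left out. HERPUD1 changed sign without factors (0.012), without a filter (0.028), in DESeq2 (0.013), in limma-voom (0.0014), with the replicate block (0.00059), with the GC and length correction (0.15), after summing (0.0092) and after summing with batch as a term (0.011), and ranged from -0.059 to 0.032 with a library left out. Neither was called in a fit that changed its sign, while P4HB was called higher with the replicate block and the GC and length correction (0.22). The median log2 fold change of the described genes stayed positive, from 0.31 with upper quartile factors to 0.47 with the GC and length correction. The medians over all genes in these fits were -0.047 and 0.086. Counting depth limits DERL3, with 7, 1 and 5 counts in SSC PDGF+.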
